A study of Mus musculus with 4 samples.

Results

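The 10 genes described here are Smad1, Smad2, Smad3, Smad4, Smad5 and Smad7, the receptor gene Tgfbr1, and Id1, Id2 and Id3, out of 53465 gene rows in a table of raw read counts. They were chosen by name as one signalling group, by a choice made with the fold changes and calls of the only comparison in the series already known. No measured threshold for membership is given, and all differences of these genes between the groups are therefore a description. No p-value is given for them, and where one of them is said to be called, this only places it against the threshold used for all genes and supports nothing. The libraries hold polyadenylated RNA labelled as MLE-12, 1 immortalized mouse line of distal lung epithelium. There were 2 control libraries (replicates 1 and 2), from cells kept without the compound, and 2 libraries (replicates 2 and 3) from cells given 5 µM 1-nitropyrene, a nitrated aromatic hydrocarbon of diesel exhaust, for 12 h. All 4 libraries share the line and a medium with fetal bovine serum, and the labels name neither a vehicle nor separate cultures. The p-values below for differences between the groups therefore set them only against spread between these libraries. That spread may be technical. The stated purpose of the series concerned translation of Fbxw7 mRNA, not this pathway, and only RNA levels were measured.

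SMAD proteins carry signals of the transforming growth factor beta (TGF-beta) family from the cell surface to the nucleus. A ligand joins type II and type I receptor kinases, and the type I receptor phosphorylates receptor-regulated SMADs. Smad2 and Smad3 serve TGF-beta and activin, and Smad1 and Smad5 serve bone morphogenetic proteins (BMPs). These then join the common partner Smad4 and act on target genes, while the inhibitory Smad7 blocks the receptors. Id proteins are helix-loop-helix factors without a DNA-binding region. They bind E proteins and keep these off DNA, and Id genes are known targets of BMP signalling. In lung, TGF-beta signalling is known for its part in epithelial plasticity and fibrosis.

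Id2 was lower and Id3 higher with 1-nitropyrene, and the sequences shown are the matches to SMAD-binding letters in a window from 250 bases before to 50 bases after their RefSeq start sites (GRCm38.p6). Both strands were searched for CAGAC, the short SMAD-binding element, and for GGCGCC, a GC-rich form of it. Id3 had 2 matches to CAGAC, at 167 and 68 bases before the start, and none to GGCGCC. Id2 had 1 match to GGCGCC, at 231 bases before the start, and none to CAGAC. Each match is printed 5′ to 3′ on the strand of the gene, in capitals, with 12 bases on each side.
Id3 chr4:136143643-136143671, plus strand: tgtcctcggcgtCAGACcagcctaaggaa
Id3 chr4:136143742-136143770, plus strand: ggacccttggcgGTCTGttttgaataagg
Id2 chr12:25096306-25096335, minus strand: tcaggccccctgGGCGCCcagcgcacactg
Of 32851 RefSeq windows of the same kind 49.6% held CAGAC and 11.9% held GGCGCC on either strand. In GENCODE M21, which starts Id3 farther upstream, both Id3 matches lie in the 5′ UTR of its longest transcript. The Id2 match lies in the first intron of its longest transcript.

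Library totals ranged from 6908055 to 10773733 counts, so that 3 counts, taken as the limit that a count of 0 allows, correspond to 0.276 to 0.430 CPM. CPM is the usual per-library scaling of counts to sequencing depth, here with TMM factors (a correction for composition). The profile went against the label: of 16 markers of lung epithelium 12 were at 0 in all libraries, keratins, E-cadherin, Epcam, most surfactant genes and Nkx2-1 among them, and the summed level was 13.3 to 14.5 CPM in control and 14.4 to 15.1 CPM with 1-nitropyrene, nearly all from Abca3 and Etv5. Of 8 fibroblast markers 7 had counts, with a summed level of 3.44 to 6.80 CPM in control and 1.06 to 1.84 CPM with 1-nitropyrene. Only Thy1 of these was at 0 in all 4 libraries, and their part in the results below was not tested. Endothelial markers (2 of 5 at 0) summed to at most 0.286 CPM in any library and leukocyte markers (4 of 6 at 0) to at most 0.143 CPM.

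With 1-nitropyrene Id2 was lower by 34.9% and Id3 higher by 21.2%, and Smad2 was higher by 19.6%. In bulk RNA, fewer cells with a transcript and less of it per cell cannot be told apart. These are the 3 members on the called side of the threshold used for all genes, a Benjamini-Hochberg adjusted p under 0.05 in edgeR's quasi-likelihood fit over 7738 genes. For the members that side is a description, since their calls were known when they were chosen. Of the 10 members 8 passed the filter on low counts, 2 were called higher and 1 lower, and 5 were not called. Among all tested genes 24.5% were called, 13.2% higher and 11.2% lower. The median log2 fold change was 0.21 over the 8 tested members and -0.0035 over all tested genes. In all 8 the treated libraries lay on one side of both controls, as they did in 59.2% of all tested genes. Because the members were chosen with this comparison known, nothing is read from these shares.

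**Figure D1:**
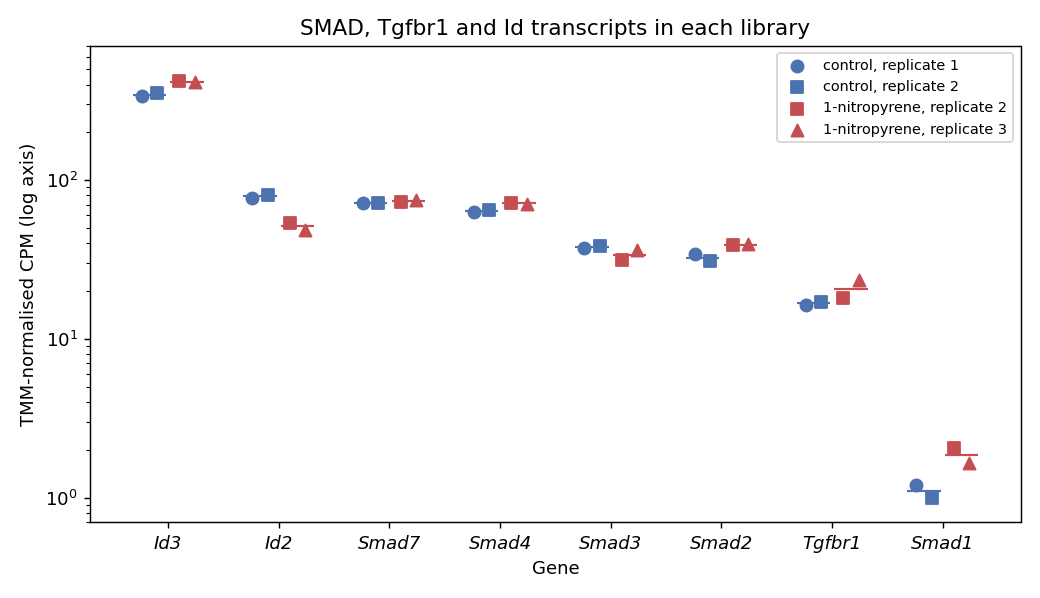
Level of the 8 members that passed the filter, in TMM-normalised CPM on a log axis, with 1 point per library and a bar at the mean of each group (n = 2). Id3 lies between 338 and 418 CPM and Smad1 between 1.00 and 2.07 CPM, and Id2 is the member whose treated libraries lie farthest below the controls.

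Tgfbr1 (GRCm38 chromosome 4, 47353222 to 47414931, plus strand), the type I receptor of TGF-beta, gave 16.3 and 17.2 CPM in control replicates 1 and 2 and 18.0 and 23.4 CPM in 1-nitropyrene replicates 2 and 3. One treated library was close to the controls and the other well above them. The log2 fold change of 0.31 (SE 0.14, interval of the ratio 1.02 to 1.51) was not called. It was 0.12 without 1-nitropyrene replicate 3 and 0.49 without 1-nitropyrene replicate 2, where it was called. Tgfbr2, the type II partner and no member, was at 18.3 and 21.2 CPM in control and 17.2 and 21.6 CPM with 1-nitropyrene, so that the groups overlapped (log2 fold change -0.0037, adjusted p = 0.989 in edgeR).

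Of the SMADs that TGF-beta and activin receptors phosphorylate, Smad2 (chromosome 18, 76241580 to 76310963, plus strand) had control levels of 34.1 and 30.9 CPM and treated levels of 38.8 and 39.7 CPM. The treated libraries lay above both controls. The log2 fold change was 0.26 (SE 0.10), with an interval of the ratio of 1.04 to 1.37. Smad2 was only just inside the threshold for a call, and the call ended under 11 of the 14 alternatives, among them each of the 4 fits that left out 1 library (0.21 without control replicate 2, 0.35 without control replicate 1).

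Smad3 (chromosome 9, 63646767 to 63757994, minus strand) differed in the other direction and was not called. Control replicates 1 and 2 held 37.1 and 38.7 CPM, and 1-nitropyrene replicates 2 and 3 held 31.5 and 36.3 CPM. The upper treated library came close to the lower control. The log2 fold change was -0.16 (SE 0.10, interval of the ratio 0.781 to 1.03). It rested largely on 1-nitropyrene replicate 2, being -0.06 without that library and -0.26 without 1-nitropyrene replicate 3. Counts of Smad3 per count of Smad2 were 1.09 and 1.25 without the compound and 0.811 and 0.914 with it. The ratio with the compound was 0.738 times that of control. It restates the opposite differences of Smad2 and Smad3, known when they were chosen, and nothing further is read from it.

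The BMP-responsive SMADs were scarce. Smad1 (chromosome 8, 79338395 to 79399518) had control counts of 13 and 7 and treated counts of 18 and 14. It reached the level of the filter, 1.15 CPM, in both treated libraries and 1 of the 2 controls. Its log2 fold change was 0.72 (SE 0.51), and the interval of the ratio ran from 0.829 to 3.29, that is below 1 to far above it. Smad1 was not called. Smad5 (chromosome 13, 56703010 to 56742377) had control counts of 2 and 1 and treated counts of 0 and 1, and was not tested. Smad9, the third SMAD of this class and no member, had 9 to 24 counts per library.

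The common partner Smad4 (chromosome 18, 73639009 to 73703780, minus strand) stood at 62.8 and 65.2 CPM without the compound and 72.2 and 70.8 CPM with it. Both treated libraries lay above both controls. The means were 64.0 ± 1.69 and 71.5 ± 0.962 CPM (SD, n = 2), a log2 fold change of 0.17 (SE 0.07, interval of the ratio 1.01 to 1.24) that was not called.

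The inhibitory Smad7 (chromosome 18, 75367529 to 75395935, plus strand), which TGF-beta itself induces, was nearly level. Levels were 72.1 and 71.6 CPM for the controls, and 72.4 and 75.1 CPM after 1-nitropyrene. The lower treated library lay barely above the higher control, and the gene was not called. The log2 fold change was 0.04 (SE 0.07), with an interval of the ratio of 0.930 to 1.13. The related inhibitor Smad6 (no member) stayed in nearly the same ratio to it, with 1.10 and 1.11 Smad7 counts per Smad6 count in control and 1.11 and 1.04 after treatment.

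Id3 (chromosome 4, 136143497 to 136145755, plus strand) was the most abundant member. It was at 338 and 352 CPM in control replicates 1 and 2, and at 418 and 417 CPM in 1-nitropyrene replicates 2 and 3. Both treated libraries lay above both controls. The means were 345 ± 10.1 and 417 ± 0.941 CPM (SD, n = 2), a log2 fold change of 0.28 (SE 0.04) with a 95% interval of the treated-to-control ratio of 1.15 to 1.27. Among the 4698 tested genes that averaged 10 CPM or more, 14.7% had a log2 fold change at least as high.

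Id2 (chromosome 12, 25093799 to 25097140, minus strand) was the member with the widest difference among those called. Its level was 77.1 and 80.8 CPM in control replicates 1 and 2, against 53.5 and 48.8 CPM in 1-nitropyrene replicates 2 and 3. Each treated library lay below each control. The means were 78.9 ± 2.59 and 51.2 ± 3.33 CPM (SD, n = 2), a log2 fold change of -0.62 (SE 0.08) with an interval of the ratio of 0.587 to 0.723. Of the same 4698 genes 1.53% had a log2 fold change at least as low. With any 1 library left out the value of Id2 stayed between -0.69 and -0.55 and that of Id3 between 0.25 and 0.31.

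Id1 (chromosome 2, 152736251 to 152737410), the Id gene most often used as a readout of BMP signalling, was nearly absent. It had 1 count in control replicate 1, 1 count in 1-nitropyrene replicate 2 and 0 in the other libraries. Summed over a group, 1 count corresponds to 0.0560 CPM in control, with an exact 95% Poisson interval of 0.00142 to 0.312 CPM, and to 0.0581 CPM with 1-nitropyrene, with an interval of 0.00147 to 0.324 CPM. Counting error is all that such intervals cover, and no molecular identifiers are named in the labels. Id4, the remaining gene of the family, had 1 count in all. No difference of Id1 was detectable at this depth.

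Within the family the balance of Id3 to Id2 could be read without any scaling between libraries. The controls had 4.38 and 4.36 Id3 counts per Id2 count, and the treated libraries 7.81 and 8.53. The controls thus nearly coincided, and the ratio was 1.87 times as high with 1-nitropyrene. This ratio restates the opposite differences of Id2 and Id3, known when they were chosen, and nothing further is read from it. Id2 made up 18.6% and 18.7% of all Id counts without the compound, and 11.3% and 10.5% with it.

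**Figure D2:**
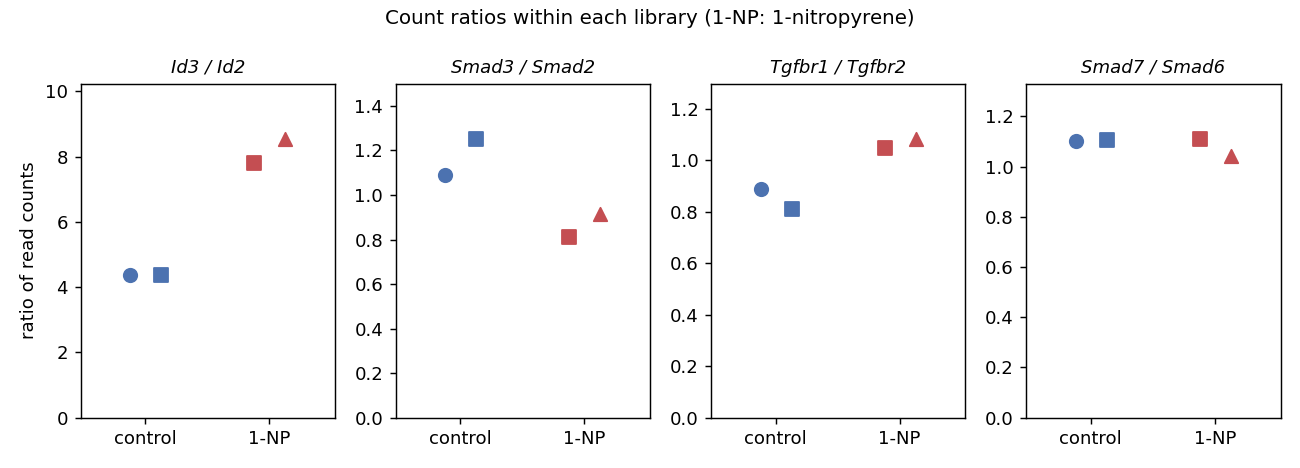
Ratios of read counts between related genes within each library (1-NP, 1-nitropyrene), with 1 point per library and each vertical axis starting at 0. The Id3 to Id2 ratio is 4.36 to 4.38 in control and 7.81 to 8.53 with 1-nitropyrene, while the Smad7 to Smad6 ratio overlaps between the groups. Ratios between members restate differences known when the members were chosen.

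**Figure D3:**
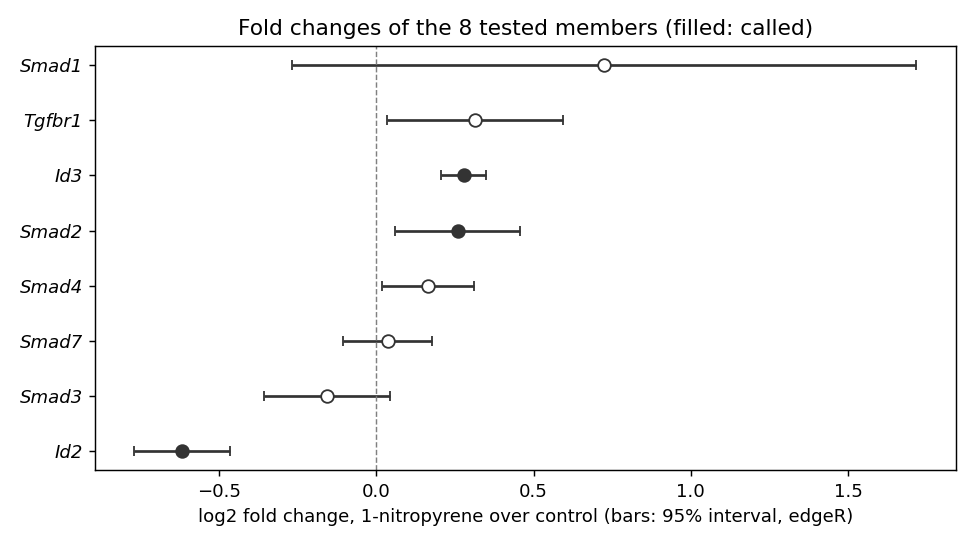
Log2 fold changes of the 8 tested members, 1-nitropyrene over control, with 95% intervals from the edgeR fit. Filled points are the 3 called members, Id2 below 0 and Id3 and Smad2 above 0, and Smad1 has the widest interval.

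Levels of different genes were compared per kilobase of merged exons, as CPM per kilobase in control. Id3 stood at 193, Id2 at 32.4, Smad4 at 17.2, Smad7 at 15.9, Smad3 at 6.84, Smad2 at 3.70, Tgfbr1 at 2.56 and Smad1 at 0.175 CPM per kilobase. Among 6738 tested protein-coding genes Id3 was above 99.0% and Id2 above 90.0%, while Smad1 was above 1.82%. No neighbours in this order overlapped between the 2 control libraries. Smad4 (16.9 and 17.5) and Smad7 (16.0 and 15.8) were closest as a ratio of levels. The order was the same per kilobase of the longest coding transcript. With 1-nitropyrene Id2, at 22.0 and 20.0 CPM per kilobase, came near Smad4, at 19.4 and 19.1. Smad2 and Smad3, similar in CPM, differed per length because the merged exons of Smad2 are longer (8781 against 5542 bp).

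The spread between libraries of a group was a measure that the choice of members did not use. In exact two-sided binomial tests of the 2 libraries' counts, run for the 10 members in both groups (20 tests), the smallest p was 0.0170, for Tgfbr1 between the treated libraries (157 and 199 counts, Benjamini-Hochberg adjusted p = 0.339). No pair passed the adjustment, and outside the members with 4 or fewer counts the ratio of the second to the first library lay between 0.795 (Smad1, treated) and 1.29 (Tgfbr1, treated). Those of Id1 and Smad5 had too few counts to pass under any split, so they show nothing about agreement. All of these tests compare libraries, not conditions.

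The rest of the pathway was described from 8 lists of 148 genes that are no members. Of these, 67 passed the filter and 45 had 0 counts in all 4 libraries. The lists were written with earlier results of these data known, so their counts, p-values and kept calls are a description only. Of the 67 tested, 13 rose and 12 fell, and the median log2 fold change was 0.03. Calls over all tested genes came to 24.5%, 13.2% higher and 11.2% lower. The counts of each list below stand beside these shares. Of the 25 calls 11 were kept under all 14 alternative settings: Strap, Usp9x, Map3k7, Usp4, Pmepa1, Fn1, Ski, Zeb2, Gdf11, Junb and Ets1. Adjusted p-values are from edgeR over all 7738 genes. Exon overlaps with opposite-strand genes are given beside each called gene that has one. Among the tested but uncalled genes named they also touch Bmp5, Bmpr1a, Fst, Itgav, Ltbp3, Rb1, Rgma, Runx2, Tgfb3 and Twist2. Untested genes named with such an overlap are Ccn2, Cdkn1a, Id4 and Tgfb2.

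Ligands were few. Of 15 TGF-beta and activin ligands and latent binding proteins 4 were tested, with 1 higher and 1 lower. Tgfb1, the principal TGF-beta ligand, had 1 count in all and Tgfb2 had 2. Gdf11, an activin-class ligand, fell from 55.1 and 51.7 CPM to 42.4 and 36.8 CPM (log2 fold change -0.44, SE 0.09, adjusted p = 1.63e-05). Ltbp1, which stores latent TGF-beta in matrix, rose from 8.73 and 9.74 to 14.9 and 12.5 CPM (0.59, SE 0.18, adjusted p = 0.00864), which did not pass in DESeq2 (adjusted p of 0.159) or when control replicate 1 (0.182) or 1-nitropyrene replicate 2 (0.177) was left out. Tgfb3, at 2.86 to 3.52 CPM, did not pass (adjusted p = 0.720), nor did Ltbp3 (0.994). Of 17 BMP and GDF ligands 13 had 0 counts throughout, and the 2 tested, Bmp2 (27.2 to 31.4 CPM, adjusted p = 0.577) and Bmp5 (0.413, with 1878 bp of antisense overlap), did not pass.

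Of 17 other receptors and co-receptors 9 were tested, 1 fell and 0 rose. Acvr2a, a type II receptor of activins, was at 55.3 and 54.4 CPM in control and 46.5 and 36.6 CPM with 1-nitropyrene (log2 fold change -0.40, SE 0.09, adjusted p = 7.35e-05). Its fall was -0.24 without 1-nitropyrene replicate 3, where the call ended (adjusted p = 0.0796), and 446 bp of its exons overlap Orc4 on the opposite strand. The BMP receptors Bmpr1a (130 to 145 CPM, adjusted p = 0.665), Bmpr2 (0.378) and Acvr1 (0.777) and the co-receptors Rgma (0.463) and Neo1 (0.707) did not pass. Acvr1b, the type I receptor of activins, had 1 to 8 counts per library and was not tested. Of 16 secreted antagonists the 2 tested did not pass, the activin-binding follistatin Fst (101 to 113 CPM, adjusted p = 0.169) and Bmper (0.341).

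Among 37 SMAD partners and regulators 32 were tested, 11 rose and 4 fell, beside 13.2% called higher and 11.2% lower among all tested genes. Strap, an adaptor that stabilises Smad7 at the receptor, had 53.1 and 50.3 CPM in control and 99.3 and 104 CPM with 1-nitropyrene (log2 fold change 0.97, SE 0.07, adjusted p = 2.13e-38). The size of that adjusted p depended on the setting. It was 1.07e-37 in edgeR with a robust spread, 6.63e-11 in limma-voom and 7.14e-07 in edgeR with no filter. Pmepa1, a TGF-beta-induced inhibitor of Smad2 and Smad3 activation, rose from 28.0 and 27.9 to 37.6 and 47.7 CPM (0.61, SE 0.10, adjusted p = 1.24e-07). Deubiquitinases Usp9x, which acts on Smad4, and Usp4, which acts on the type I receptor, rose by 0.27 (SE 0.04) and 0.21 (SE 0.05), and the kinase Map3k7 of the SMAD-independent branch by 0.34 (SE 0.06). Ski, a corepressor that binds SMADs, fell from 213 and 208 to 163 and 177 CPM (-0.32, SE 0.05, adjusted p = 1.06e-09), and the SMAD-binding repressor Zeb2 fell by 0.21 on the log2 scale (SE 0.05), although 653 bp of its exons overlap the antisense Zeb2os.

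Other calls in this list were less stable. The ubiquitin ligases Wwp2 (0.38), Smurf1 (0.36) and Trim33 (0.23), the phosphatase Ctdsp1 (0.25) and the acetyltransferase Ep300 (0.17) rose on the log2 scale, and each call ended in at least 1 fit without a library and, except for Wwp2, in DESeq2. That of Trim33 also ended with no filter on low counts. Control replicate 1 ended those of Wwp2, Smurf1, Ctdsp1 and Ep300, control replicate 2 those of Smurf1 and Trim33, and 1-nitropyrene replicate 3 those of Smurf1, Trim33 (0.12 without it) and Ep300. Traf6, a signalling ligase, rose from 1.75 and 1.15 to 3.33 and 3.52 CPM (1.17, SE 0.41, adjusted p = 0.0197), a call not kept without control replicate 1, control replicate 2 or 1-nitropyrene replicate 3, or with no filter. Zeb1 (-0.27) and the SMAD anchor Zfyve9 (-0.32) were called lower at adjusted p of 0.0465 and 0.0489, and neither call was kept when any 1 library was left out. On the opposite strand, Gm10125 overlaps 198 bp of the Zeb1 exons and 3110021N24Rik 706 bp of the Zfyve9 exons. Smad6 (0.08, adjusted p = 0.514), Smad9 (-0.29, adjusted p = 0.717), Skil (-0.04, adjusted p = 0.914) and Smurf2 (0.10, adjusted p = 0.0817) did not pass.

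**Figure D4:**
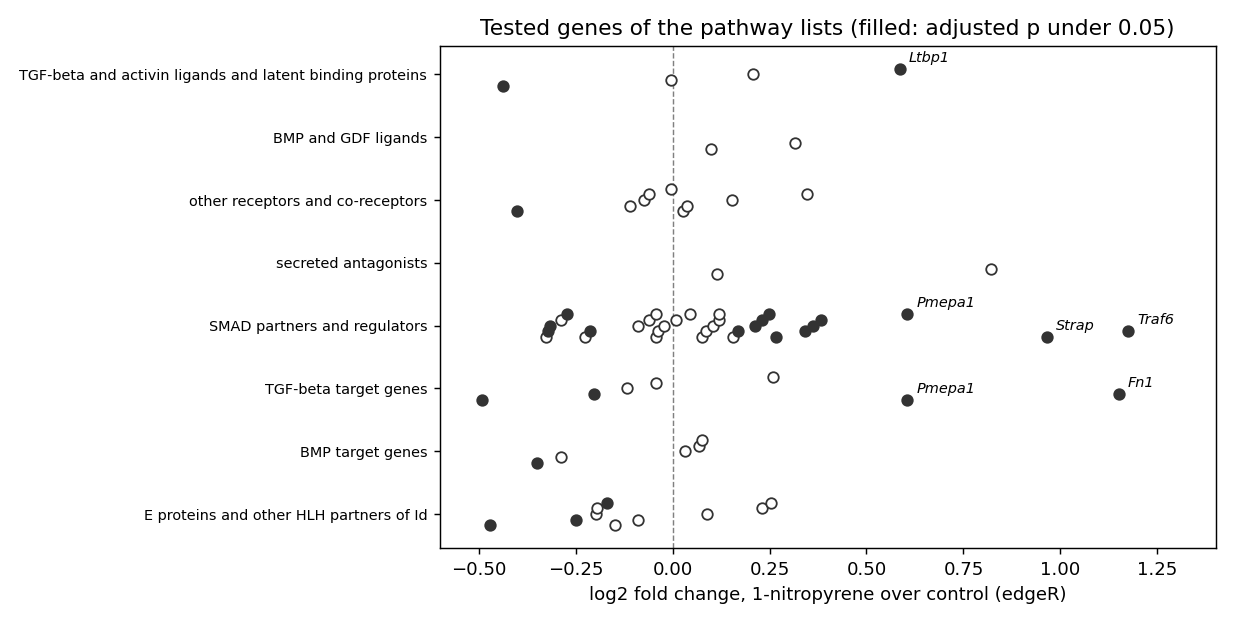
Log2 fold changes, 1-nitropyrene over control, of every tested gene in each of the 8 pathway lists, with 1 point per gene and filled points for those at an adjusted p under 0.05. Strap, Traf6, Fn1, Pmepa1 and Ltbp1 lie farthest to the right among the called genes, and genes in 2 lists appear in both.

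Target genes moved both ways. Of 21 TGF-beta target genes 7 were tested, 2 rose and 2 fell. The matrix gene Fn1 (fibronectin) rose from 189 and 179 to 423 and 398 CPM (log2 fold change 1.15, SE 0.04, adjusted p = 3.36e-164). Apol7d, on the opposite strand, overlaps 292 bp of its exons, and Pmepa1 is named above. Junb, an AP-1 subunit whose exons overlap Prdx2 by 173 bp, fell by 0.49 (SE 0.06) and Tsc22d1 by 0.20 (SE 0.08, adjusted p = 0.0483), the latter not kept when any 1 library was left out. Snai2 (0.26, adjusted p = 0.256) and Itgav (-0.12, adjusted p = 0.602) did not pass. The matricellular target Ccn2 had at most 5 counts in a library, and Cdkn1a, Cdkn2b and Tgfbi had 0 in all.

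Of 13 BMP target genes 5 were tested and 1 fell, Atoh8, from 32.5 and 38.0 to 27.6 and 26.9 CPM (log2 fold change -0.35, SE 0.11, adjusted p = 0.00889). That call was lost when control replicate 2 (-0.25, adjusted p of 0.201) or 1-nitropyrene replicate 3 (0.0585) was left out, in DESeq2 (0.130) and with no filter (0.0649). Hes1 (0.07, adjusted p = 0.670) and Runx2 (0.03, adjusted p = 0.846) did not pass, and Msx2 and Nog had 0 counts.

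The partners through which Id proteins act were also measured. Of 21 E proteins and other HLH or Id-binding factors 10 were tested, 3 fell and 0 rose. Ets1, a transcription factor of the Ets family, fell from 140 and 126 to 100 and 92.9 CPM, a log2 fold change of -0.47 (adjusted p = 5.87e-14). The HLH factor Twist1 fell by 0.25 (SE 0.07, adjusted p = 0.00133) and the ternary complex factor Elk3 by 0.17 (SE 0.05, adjusted p = 0.00620). Twist1 missed the threshold in DESeq2 (adjusted p of 0.0598). Elk3, whose exons overlap Cdk17 on the other strand by 316 bp, missed it there (0.111), with no filter (0.0526) and when control replicate 2 (0.0882) or 1-nitropyrene replicate 3 (0.134) was left out. The E protein genes did not pass: for Tcf3 (E2A) the log2 fold change was -0.20 with SE 0.08 (adjusted p = 0.0565), for Tcf4 0.23 with SE 0.10 (0.0865) and for Tcf12 (HEB), at 228 to 249 CPM, -0.09 with SE 0.04 (0.128). Rb1, whose product Id2 binds, also missed the threshold (0.25, SE 0.10, adjusted p = 0.0547), and Twist2 did so too (-0.20, adjusted p = 0.0998).

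By the distance between log2 CPM values centred on each gene's mean over the 4 libraries, the genes most like Id3 were Sf3b3 (a splicing factor subunit), Tln1 (talin) and Tarbp2 (an RNA-binding partner of Dicer), at distances of 0.00539 to 0.0167. Those most like Id2 were Cks2 (a cell-cycle kinase subunit), Spata5 (an ATPase) and Thra (a thyroid hormone receptor), at 0.0318 to 0.0443. Of 4270 genes compared, 272 lay within 0.1 of Id3 and 14 within 0.1 of Id2. With 4 libraries such likeness is a description only.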

How the data were processed

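The 4 libraries of polyadenylated RNA were made with a strand-marking kit, per the labels' protocols. The authors deposited raw counts of reads per gene. Tools listed in the submitters' processing notes, without roles, are DESeq2, featureCounts 1.6.3 and HISAT2 2.1.0, and GRCm38 (mm10) is the build listed. Not given in the sources used here are the strand setting, the annotation release and the treatment of multiply mapped reads. Of 53465 identifiers 53360 matched GENCODE M21. Exons of 0 members overlap an opposite-strand gene, and 1 (Smad5) overlaps a small RNA gene on its own strand.

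Counts were filtered with filterByExpr (1.15 CPM in at least 2 libraries), leaving 7738 genes, scaled by TMM and fitted with edgeR 4.0.16 (quasi-likelihood, legacy set to FALSE, R 4.3.3) on treatment, with Benjamini-Hochberg adjustment over all genes. The fit took each gene's spread from all genes pooled, along a trend with expression level, so a gene's own replicate spread did not enter its SE. Replicates differed beyond sampling noise (chi-square per degree of freedom 1.62 between controls, 2.05 between treated libraries), and none was counted as a duplicate. Alternatives used other scaling (RLE, upper quartile, none), other filters, DESeq2 1.42.0, limma-voom (limma 3.58.1), an older and a robust spread, protein-coding genes only, and each library left out. A lone library is then assumed to vary like the other group. The fit was tested on simulated data with known changes.

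The members, the lists and the rule for named genes were chosen with earlier results of these data known. Named are the 10 members, every called gene of a list, up to 5 tested genes per list with the smallest p, and fixed receptors, SMADs, Id4 and E proteins. Outside that rule, the uncalled Smurf2, Skil, Itgav and Twist2 are also named. So are the untested Tgfb2, Ccn2, Cdkn1a, Cdkn2b, Tgfbi, Msx2 and Nog. Id genes' SMAD matches were singled out after their values were seen. Promoter windows are from RefSeq, with 6 of 10 members matched.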

Additional observations from a re-analysis of the deposited data

How the results depend on the processing

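Whole-table calls, 1023 higher and 870 lower, became 514 and 316 in DESeq2, and the lower calls became 532 with no filter on low counts and 507 to 648 with 1 library left out (507 without control replicate 1). Members called higher numbered 1 instead of 2, Smad2 being lost, under RLE, upper quartile or no scaling factors, with no filter, at a mean of at least 10 CPM, in DESeq2 and in limma-voom, and 1 to 2 with 1 library left out. The member called lower, Id2, was called under all 14 settings. Listed pathway genes called were 13 higher and 12 lower, against 7 and 6 in DESeq2. With 1 library left out they were 7 to 13 higher (7 without control replicate 1) and 6 to 10 lower (7 without control replicate 2, 6 without 1-nitropyrene replicate 3). Not all settings tested the same genes. Over the whole table the main fit tested 7738, DESeq2 gave an adjusted p for 5487 and the fit with no filter tested 12182. Of the listed pathway genes the main fit tested 67 and DESeq2 gave an adjusted p for 59. The causes of the changed counts were not tested. None of the 8 tested members and 25 called listed genes changed direction under any setting that gave it a value (a mean of at least 10 CPM gave none for Smad1 and Traf6). No paired analysis was possible because the groups share only 1 replicate number. An exact permutation test of 2 against 2 libraries cannot go below p = 0.333, and genes near the filter, Smad1 among them, are limited by depth.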

Other observations

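The promoter windows of the other members were searched for the same letters on both strands. The Tgfbr1 window at the start of the annotated gene held 1 match to GGCGCC, at -233 relative to the start, and none to CAGAC, while its downstream window held 1 match to CAGAC, at -203, and none to GGCGCC. Of the 3 windows of Smad5, the first and the second overlap and share 1 match to GGCGCC, and the third held 1 match to CAGAC, at -21. The windows of Smad1 and Smad3 held neither. The E-box CANNTG, the site of E proteins, had 1 match in the Id2 window, 1 in the downstream Tgfbr1 window and 1 in the overlapping Smad5 windows. It had none in the other windows, those of Id3, Smad1 and Smad3 among them, against 72.3% of all 32851 windows with a match. The composite BMP response element, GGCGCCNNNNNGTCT, was in none of the member windows and in 0.0731% of all windows. Such matches are a description of these windows only.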
